A study of Homo sapiens with 6 samples.

Results

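The matrix metalloproteinase cluster of chromosome 11q22 holds 9 genes: MMP7, MMP20, MMP27, MMP8, MMP10, MMP1, MMP3, MMP12 and MMP13, in genome order. They were taken from the gene table by their Ensembl identifiers, 9 of its 58721 gene rows, and each was found once. The cluster itself was picked from the measured knockout against control differences of these same libraries, so its changes are given as descriptions without p-values. The libraries came from A375, an established human melanoma cell line that carries an activated BRAF gene, and RNA was measured by sequencing of a stranded mRNA library. In the knockout cells a guide RNA was directed at SOX10 (genotype SOX10 knockout, 3 libraries). The control cells had a guide against mCherry, a fluorescent protein gene that the human genome lacks (genotype WT, 3 libraries). Both sets of cells were the same line in the same medium, DMEM with fetal bovine serum, and no drug is named in the labels. The labels do not say if the knockout population is 1 clone or a mixture, nor if replicates are separate cultures, so the spread between libraries may be technical.

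Matrix metalloproteinases are zinc endopeptidases, most of them secreted as inactive pro-enzymes that are switched on when the propeptide is cut away. The interstitial collagenases of the cluster (MMP1, MMP8 and MMP13) open the triple helix of fibrillar collagens, and the stromelysins (MMP3 and MMP10) cut proteoglycans, fibronectin and laminin and process other pro-enzymes. Several genes of the cluster are known to respond to AP-1, a dimer of JUN and FOS proteins, and in melanoma MMP1 has been studied for its part in the breakdown of dermal collagen during invasion.

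The RefSeq promoter windows of 5 members could be matched (GRCh38.p14, 250 bases before to 50 after the start). These were MMP7, MMP20, MMP27, MMP8 and MMP10. No window was at hand for MMP1, MMP3, MMP12 and MMP13, so the motif counts below do not cover them. MMP8 and MMP10 are shown because they are next to each other and moved in opposite directions, and MMP7 because it alone of the 5 had an exact AP-1 match. All 3 lie on the minus strand and are written 5′ to 3′ in the direction of transcription, MMP8 at chr11:102724905-102725204, MMP10 at chr11:102780579-102780878 and MMP7 at chr11:102530698-102530997. Capitals mark matches to AP-1 (TGAGTCA or its reverse complement TGACTCA), to the TATA box (TATAAA, sense strand only), to RUNX (TGTGGT, both strands) and to SOX (ACAAAG or ACAATG, both strands), none of which overlapped another here.
MMP8: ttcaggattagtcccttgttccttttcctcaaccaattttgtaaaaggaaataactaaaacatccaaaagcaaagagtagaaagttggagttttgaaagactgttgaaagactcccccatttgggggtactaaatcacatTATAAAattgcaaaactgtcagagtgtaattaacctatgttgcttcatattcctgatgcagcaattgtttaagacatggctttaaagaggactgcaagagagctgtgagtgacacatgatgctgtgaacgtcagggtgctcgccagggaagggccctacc
MMP10: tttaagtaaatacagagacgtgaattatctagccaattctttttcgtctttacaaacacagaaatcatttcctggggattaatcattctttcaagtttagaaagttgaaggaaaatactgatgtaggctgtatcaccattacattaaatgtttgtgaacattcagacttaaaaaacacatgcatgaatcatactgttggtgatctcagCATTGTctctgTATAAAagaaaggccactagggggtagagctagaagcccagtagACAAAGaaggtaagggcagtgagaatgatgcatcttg
MMP7: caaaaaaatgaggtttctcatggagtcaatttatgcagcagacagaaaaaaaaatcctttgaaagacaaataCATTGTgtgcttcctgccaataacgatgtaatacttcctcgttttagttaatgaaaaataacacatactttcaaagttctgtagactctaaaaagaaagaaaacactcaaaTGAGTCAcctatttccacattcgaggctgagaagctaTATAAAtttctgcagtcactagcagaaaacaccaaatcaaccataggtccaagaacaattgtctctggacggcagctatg

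The MMP10 window held a TATA box 31 to 26 bases before the start, and SOX matches 42 to 37 bases before it and 14 to 19 bases after it. The MMP7 window held a TATA box 30 to 25 bases before the start, an AP-1 match 67 to 61 bases before it and a SOX match further upstream. In the MMP8 window the sole match of these kinds was a TATA box 110 to 105 bases before the RefSeq start, and the GENCODE 29 model of MMP8 reaches further upstream than that start. A TATA box was present in 4 of the 5 member windows, against 7.33% of 35116 human promoters of that length. An exact AP-1 match was present in 1 of 5, against 4.95% of all promoters, and with 1 mismatch allowed in 5 of 5, against 46.9%. In MMP10 that looser match lay 67 to 61 bases before the start, the positions of the exact match in MMP7. SOX letters were found in 2 of 5 windows, against 24.5% of all promoters, RUNX letters in 0 of 5, against 13.1%, and a pair of ETS cores (GGAA or TTCC at most 10 bases apart) in 2 of 5, against 34.5%. The 3 windows shown had 40.7% G and C in MMP8, 36.3% in MMP10 and 35.7% in MMP7, against a median of 58.7% over all promoters. A match of letters is a description and not a binding site.

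Library totals were 70075002 to 78148565 gene counts in knockout and 71793584 to 74970700 in control, and replicates differed by more than sampling noise. SOX10 RNA, the check of the labels, stood at 47.2, 47.8 and 41.5 CPM (gene counts scaled to the TMM-adjusted library total) in the knockout libraries and at 241, 237 and 223 CPM in the control libraries. Its log2 fold change was -2.36 ± 0.08 (SE; edgeR quasi-likelihood test, adjusted p = 1.84e-07). It was lower in 3 of 3 knockout libraries, and the exact two-sided permutation test gave p = 0.1, which is the lower limit for groups of 3. Transcripts of an edited gene can persist, so this checks the labels at the level of RNA alone. Melanocyte and melanoma markers summed to 192.5 to 204 CPM in knockout and 338 to 352 CPM in control, with none of the 13 at 0 in all libraries. SOX10 is itself in that list, and a sum without it was added after the data were seen. The other 12 gave 151 to 156 CPM in knockout and 111 to 115 CPM in control, the opposite direction. MITF, a melanocyte transcription factor, set that direction, averaging 138 CPM in knockout and 57.5 CPM in control. The most abundant of the 13 was MITF in knockout and SOX10 in control. Of the 11 tested, 3 were called higher and 6 lower at an adjusted p of 0.05, against 14.0% each of all genes tested.

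Of 19263 genes tested, 28.0% were called changed at an adjusted p of 0.05, 14.0% higher and 14.0% lower in knockout, and the 2 groups of libraries did not overlap for 41.6%. In the cluster, 6 of 9 members had enough counts to be tested, 4 were called higher, 1 was called lower and 1 was not called. The groups did not overlap for 7 members, the 6 tested ones and the untested MMP20, while the 41.6% is over tested genes alone. Nothing is read from these counts, since the same contrast was used to choose the cluster. MMP10 and MMP12 passed the filter on low counts through their knockout libraries, while MMP8, MMP1, MMP3 and MMP13 had at least 30 counts in every library of both groups.

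Among the collagenases, MMP1 was 29.7-fold higher and MMP13 3.61-fold higher in knockout, while MMP8 was 38.6-fold lower. MMP1 (interstitial collagenase, ENSG00000196611; GRCh38 chromosome 11, 102789920 to 102798160) had 111.5, 122.8 and 137.7 CPM in the knockout libraries, against 3.74, 3.94 and 4.85 CPM in the control libraries. Every knockout library lay far above every control library, and the log2 fold change was 4.89 ± 0.13 (SE, n = 3 each).

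MMP8 (neutrophil collagenase, ENSG00000118113; chromosome 11, 102711795 to 102727050) moved the other way. Its counts were 30, 34 and 38 in the knockout libraries, against 1173, 1324 and 1252 in the control libraries, or 0.445 ± 0.0352 CPM in knockout and 17.2 ± 0.790 CPM in control (SD, n = 3 each). The groups were wide apart: the lowest control library stood 33.7 times as high as the highest knockout library. The log2 fold change was -5.26 ± 0.11 (SE), rank 39 from the lowest of all genes tested. MMP8 protein is best known from the granules of neutrophils, and of 15 neutrophil markers 8 had 0 counts in all 6 libraries (MPO, CTSG, CSF3R, S100A8, FCGR3B, S100A12, PRTN3 and ELANE). The 15 summed to 1.11 to 1.41 CPM in knockout and 0.431 to 0.763 CPM in control. CD177 was the most abundant of them in knockout and CAMP in control. Of the 2 tested, 1 was higher and 0 were lower, against 14.0% each of all genes.

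MMP13 (collagenase 3, ENSG00000137745; chromosome 11, 102942995 to 102955734), which prefers the collagen of cartilage, had 6.20, 5.29 and 5.94 CPM in the knockout libraries, against 1.56, 1.61 and 1.66 CPM in the control libraries. The groups did not overlap, the control libraries lay close together, and the log2 fold change was 1.85 ± 0.11 (SE). The markers of chondrocytes, a cell type known to make MMP13, mostly went lower: 1 of 6 tested was higher and 5 were lower, against 14.0% each of all genes. The 10 listed summed to 57.1 to 69.3 CPM in knockout and 268 to 343 CPM in control. HAPLN1, a hyaluronan link protein, made up most of that sum in both groups. COL10A1 was at 0 in the knockout libraries and COMP in the control libraries. The labels name no cells but A375, and whether these marker genes bear on the MMP13 value was not tested.

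Both stromelysins were higher in knockout. MMP3 (stromelysin 1, ENSG00000149968; chromosome 11, 102835801 to 102843803) had 27.8, 28.8 and 30.2 CPM in the knockout libraries, against 1.04, 0.850 and 0.749 CPM in the control libraries. All knockout values were above all control values, and MMP3 was 32.9-fold higher, with a log2 fold change of 5.04 ± 0.12 (SE).

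MMP10 (stromelysin 2, ENSG00000166670; chromosome 11, 102770503 to 102780628) was close to the floor in control cells. It had 599, 693 and 733 counts in the knockout libraries, against 8, 1 and 16 counts in the control libraries, or 8.84 ± 0.512 CPM in knockout and 0.116 ± 0.104 CPM in control. The groups did not overlap, the lowest knockout library being 37.5 times the highest control library. Its means differed 76.5-fold, with a log2 fold change of 6.25 ± 0.33 (SE), rank 24 from the highest of all genes tested. Control replicate 2, with its 1 count, and control replicate 3, with 16, set the size of this value: the log2 fold change was 5.71 without control replicate 2 and 7.13 without control replicate 3.

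The stromelysin genes are close copies, and reads that match both could be lost or misplaced by the counting. Of 1756 different words of 50 bases in the MMP10 transcripts, 59 (3.36%) also occurred in MMP3, and no other pair of members shared such a word. MMP10 counts were 29.9%, 30.7% and 30.9% of MMP3 counts in the knockout libraries, against 10.7%, 1.59% and 29.6% in the control libraries. The ratio was thus even among knockout libraries and uneven among control libraries, where MMP10 had few counts.

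MMP12 (macrophage elastase, ENSG00000262406; chromosome 11, 102862736 to 102875034), which cuts elastin, was low in both groups. Its counts were 25, 27 and 19 in the knockout libraries, against 15, 9 and 8 in the control libraries, or 0.312 ± 0.0599 CPM in knockout and 0.147 ± 0.0536 CPM in control. The knockout values lay above the control values without overlap, yet the gene did not pass the threshold (log2 fold change 1.08 ± 0.36, SE). Without control replicate 1 it did, at 1.42. Of 14 macrophage markers, TYROBP, C1QA, C1QB, C1QC, FCGR3A and AIF1 had 0 counts in every library. Among the 4 tested 1 was higher and 1 lower, against 14.0% each of all genes. The list summed to 9.02 to 10.4 CPM in knockout and 16.9 to 21.7 CPM in control, led by MSR1, a scavenger receptor, in knockout and by LYZ, lysozyme, in control.

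The remaining members were silent or nearly so. MMP7 (matrilysin, ENSG00000137673; chromosome 11, 102520508 to 102530753), an epithelial enzyme that lacks the hemopexin domain, had 0, 0 and 1 count in the knockout libraries and 0 in each control library. MMP27 (ENSG00000137675; chromosome 11, 102691487 to 102705806) had 0 counts in all 6 libraries. A count of 0 at these depths allows up to 0.0417 CPM in the shallowest library, where 3 counts are taken as the limit and counting error alone is covered.

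MMP20 (enamelysin, ENSG00000137674; chromosome 11, 102576835 to 102625332), the enzyme that trims enamel proteins, had 3, 2 and 6 counts in the knockout libraries, against 8, 7 and 14 in the control libraries. No library of one group fell within the range of the other, but these counts were too few to pass the filter, and without the filter the log2 fold change was -1.44 ± 0.64 (SE). MMP20 also shares 206 exonic bases with MMP20-AS1 on the other strand, so its few reads cannot be placed with certainty while the strand setting of the counting is unknown. The 6 ameloblast markers summed to 0 to 0.0511 CPM in knockout and were at 0 in control.

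**Figure D1:**
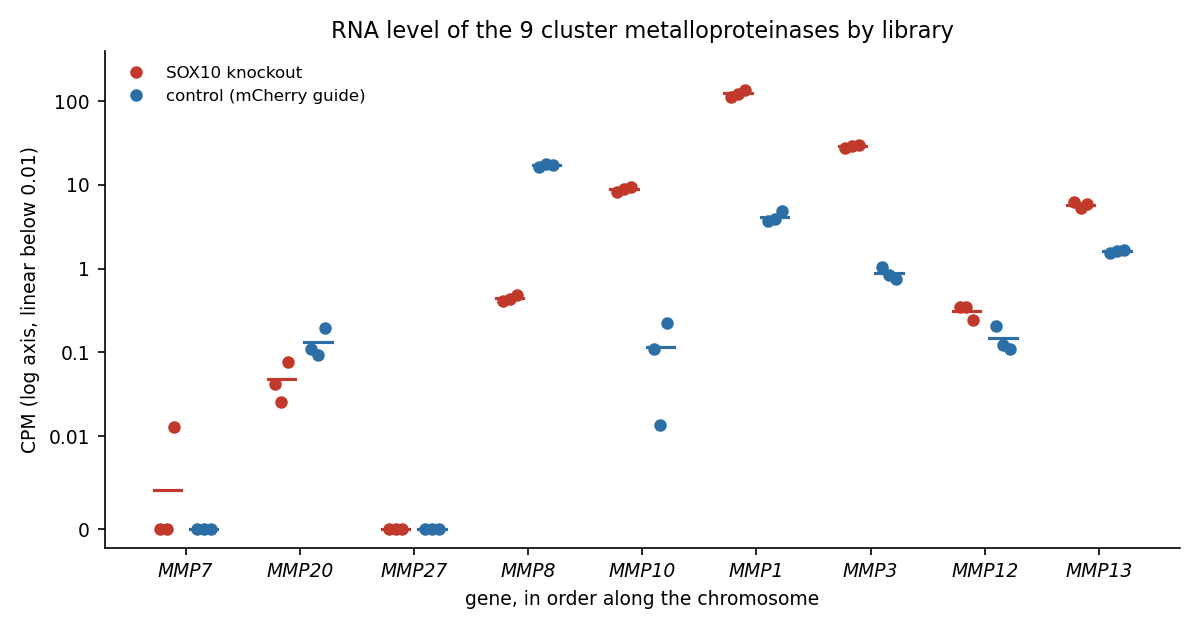
CPM of the members (log axis, linear below 0.01) in genome order, with knockout left of control for every gene, 1 point per library and a line at the mean of 3 libraries. MMP10, MMP1, MMP3 and MMP13 sit higher in knockout and MMP8 lower, while MMP12 stays at or under 0.347 CPM in all 6 libraries.

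Levels of different members were compared per kilobase of exon. In knockout, MMP1 was the highest at 62.9 ± 6.68 CPM per kb, followed by MMP3 (14.1 ± 0.587), MMP10 (5.03 ± 0.291) and MMP13 (2.05 ± 0.166), with no overlap between neighbours in that order. MMP12 (0.166 ± 0.0320 CPM per kb) and MMP8 (0.130 ± 0.0102 CPM per kb) came next in knockout and overlapped each other. In control, MMP8 was the highest at 5.00 ± 0.230 CPM per kb, then MMP1 (2.12 ± 0.302), MMP13 (0.568 ± 0.0189) and MMP3 (0.430 ± 0.0729), again without overlap. MMP12, MMP10 and MMP20 averaged 0.0784, 0.0657 and 0.0522 CPM per kb in control and overlapped. Per kilobase of coding sequence MMP8 stood above MMP12 in knockout, at 0.297 and 0.221 CPM per kb.

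The make-up of the cluster's summed counts turned over. Shares here are of CPM not divided by gene length, so longer genes weigh more than in the levels per kilobase above. All 9 genes together gave 155, 167 and 184 CPM in the knockout libraries, against 23.1, 24.5 and 25.1 CPM in the control libraries, a 6.95-fold higher sum in knockout. MMP8 held 0.265% ± 0.00458 of it in knockout and 70.9% ± 1.97 in control (SD, n = 3 each). MMP1 held 73.6% ± 1.38 in knockout and 17.2% ± 1.82 in control, and MMP3 17.2% ± 0.790 in knockout and 3.66% ± 0.787 in control. For MMP13 the share was lower in knockout, 3.47% ± 0.466 against 6.64% ± 0.0976 in control, although its own level was higher. Leaving out MMP8, the sum was 168 CPM in knockout and 7.06 CPM in control, a 23.8-fold difference.

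**Figure D2:**
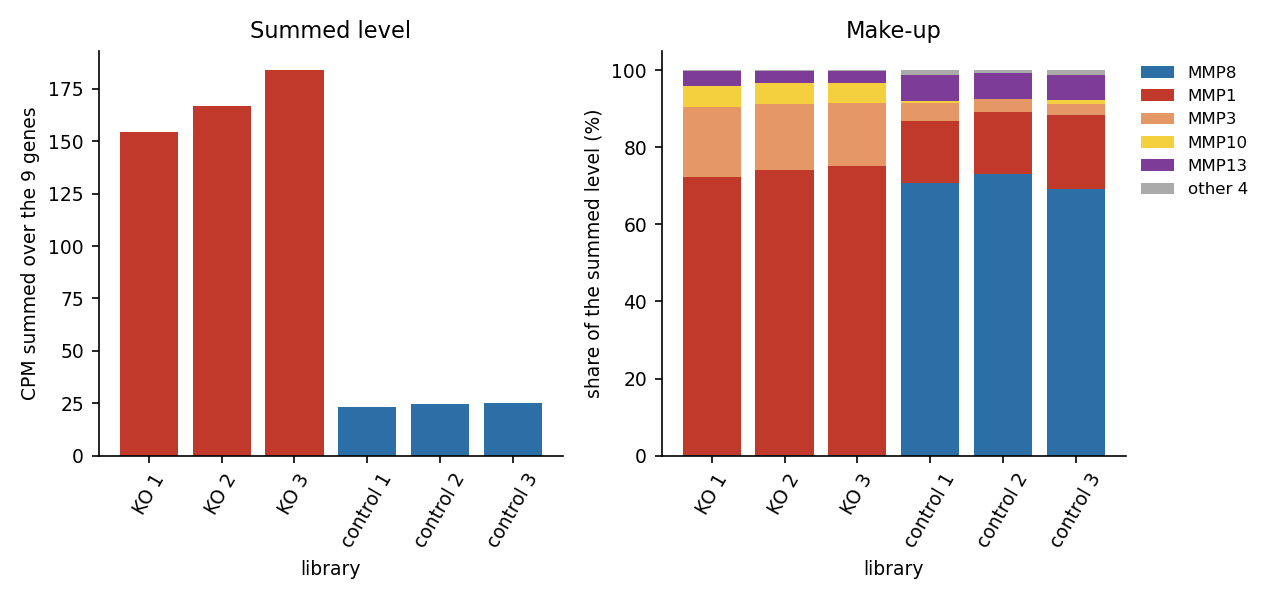
Left, CPM summed over the 9 genes in each library, and right, the share of each gene in that sum in percent, with the knockout libraries (KO) left of the control libraries. The knockout sums of 155 to 184 CPM are mostly MMP1 and MMP3, and the control sums of 23.1 to 25.1 CPM are mostly MMP8.

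All 9 genes are read from the minus strand within 435.2 kb (chromosome 11, 102520508 to 102955734). MMP7, MMP20 and MMP27, with too few counts to be tested, and MMP8, called lower, form one end of the cluster. MMP8 ends 43.5 kb from MMP10, and MMP10 and MMP1 are 9.29 kb apart. From MMP10 to MMP13 the members had higher means in knockout, though MMP12 among them was not called. Between the members lie 8 other annotated genes, of which 0 were tested and 5 had 0 counts in all libraries. WTAPP1, a pseudogene on the plus strand that overlaps MMP10, MMP1 and MMP3, had 10, 7 and 10 counts in the knockout libraries, against 2, 2 and 4 in the control libraries. It shares 150 exonic bases with MMP1 and 32 with MMP3, and its few reads cannot be told apart from theirs if strand was ignored. MMP20-AS1 had 4, 5 and 3 counts in the knockout libraries, against 4, 6 and 6 in the control libraries.

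Outside the cluster, 8 protein-coding genes with a midpoint within 1 Mb were tested, and 3 of them were called, all higher, against 28.0% of all genes. BIRC3, an inhibitor of apoptosis that NF-kappaB induces, averaged 12.9 ± 0.782 CPM in knockout and 4.90 ± 0.604 CPM in control (log2 fold change 1.39 ± 0.11, SE; edgeR, adjusted p = 2.00e-05), with all 3 knockout libraries higher. CFAP300, a gene of cilia, averaged 1.88 ± 0.193 CPM in knockout and 0.812 ± 0.124 CPM in control (log2 fold change 1.21 ± 0.17; edgeR, adjusted p = 0.000876). CEP126, a centrosomal protein gene, averaged 13.8 ± 1.15 CPM in knockout and 7.59 ± 0.706 CPM in control (log2 fold change 0.86 ± 0.10; edgeR, adjusted p = 0.000251).

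The other tested protein-coding flanking genes were not called in this fit. TMEM123, 50.1 kb before it, averaged 398 ± 7.31 CPM in knockout and 409 ± 11.3 CPM in control, a log2 fold change of -0.04. DCUN1D5, 106 kb after it, and DYNC2H1, a dynein of cilia 154 kb after it, had log2 fold changes of 0.09 and 0.07, and their groups overlapped. YAP1, the Hippo pathway coactivator 287 kb before the cluster, stood at 194 ± 9.42 CPM in knockout and 198 ± 9.12 CPM in control. BIRC2, the gene next to BIRC3 and 142 kb before the cluster, stood at 134 ± 9.97 CPM in knockout and 141 ± 15.3 CPM in control. BIRC3, called higher, lay between BIRC2 and YAP1, 181 kb before the cluster.

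**Figure D3:**
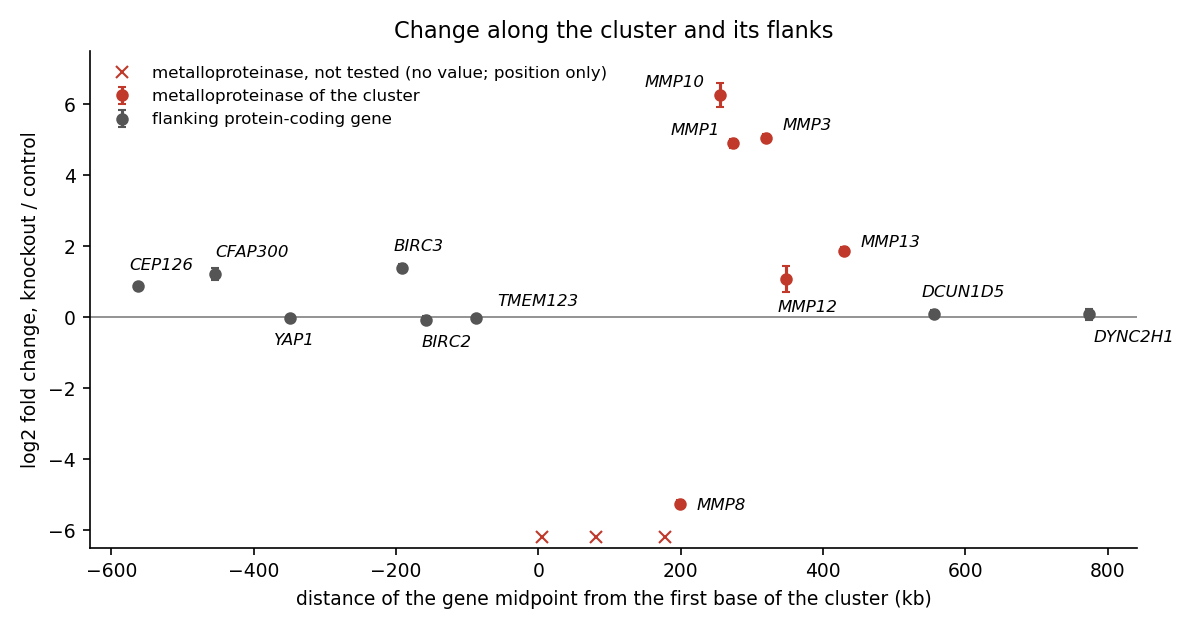
Log2 fold change (knockout over control, bars show SE) against the distance of each gene's midpoint from the first base of the cluster in kb, with the untested members marked at the bottom edge for position only. The steep step lies between MMP8 at -5.26 and its neighbour MMP10 at 6.25, and the flanking genes lie between -0.07 and 1.39.

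The opposite movement of adjacent genes was set beside neighbouring genes over the whole genome, the cluster included, as a description. Among 1796 pairs of neighbouring tested protein-coding genes that were both called, 603 (33.6%) moved in opposite directions. Where both genes of a pair had a log2 fold change of at least 4 in size, there were 16 pairs, of which 3 were opposite: MMP8 with MMP10, CDH7 with CDH19 (cadherins) and KIT with KDR (receptor tyrosine kinases). The last 2 pairs are named because they completed that small count. Of 12 such pairs less than 100 kb apart, 1 was opposite, MMP8 with MMP10. Leaving out pairs of cluster members, a count added after the data were seen, 2 of 13 pairs were opposite in all, and 0 of 9 less than 100 kb apart. At a size of at least 2 and with the cluster included, 26 of 107 pairs (24.3%) were opposite. Of those less than 100 kb apart, 13 of 71 (18.3%) were. MMP8 with MMP10 entered these counts through values that were used to choose the cluster, so nothing is read from its place there.

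The genes most alike in pattern were taken by the smallest root mean square distance of log2 CPM over the 6 libraries, each gene centred on its own mean. Candidates were 13515 tested genes with at least 1 CPM on average, a count in every library and an ordinary gene symbol. Genes known only by an identifier were left out. For MMP1 the most alike were CDH7, a cadherin (distance 0.169), PLXDC2 (0.170) and GPRC5C (0.188). CDH7 averaged 22.25 ± 0.217 CPM in knockout and 0.833 ± 0.0694 CPM in control. For MMP8 the most alike were ART3 (0.128), GAS7 (0.180) and IL16 (0.183). ART3, an ADP-ribosyltransferase family gene, averaged 0.354 ± 0.0198 CPM in knockout and 12.5 ± 1.17 CPM in control. The points behind each distance are 6 libraries of 2 groups.

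The genes around the cluster's enzymes moved in both directions, with list medians between -0.14 and 0.45. Of 14 other metalloproteinases 10 were tested, 4 were higher and 2 lower (40.0% and 20.0%, against 14.0% each of all genes), with a median log2 fold change of 0.45, against -0.02 over all genes. MMP2, gelatinase A, averaged 197 ± 10.4 CPM in knockout and 109 ± 9.05 CPM in control (log2 fold change 0.85; edgeR, adjusted p = 6.28e-05). MMP17, a membrane-bound member, averaged 0.644 ± 0.122 CPM in knockout and 4.93 ± 0.373 CPM in control (log2 fold change -2.93; adjusted p = 2.28e-06). MMP16, the most abundant, was not called at 187 ± 9.25 CPM in knockout and 211 ± 10.7 CPM in control.

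Among 11 inhibitors of the enzymes and of their activators, 9 were tested, 3 were higher and 3 lower (33.3% each, against 14.0% each of all genes), with a median of -0.14. TIMP3, a matrix-bound tissue inhibitor of metalloproteinases, averaged 274.5 ± 10.4 CPM in knockout and 1538 ± 76.9 CPM in control (log2 fold change -2.49; edgeR, adjusted p = 9.25e-08). SERPINE2, the most abundant of the list, averaged 3259 ± 74.0 CPM in knockout and 4159 ± 102.3 CPM in control (log2 fold change -0.35; adjusted p = 0.00167).

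Of 17 activators and inducers of the pro-enzymes, 8 were tested, 3 were higher and 2 lower, against 14.0% each of all genes, with a median of 0.08. CTSB, the lysosomal protease cathepsin B, averaged 173 ± 1.09 CPM in knockout and 122.5 ± 4.92 CPM in control (log2 fold change 0.50; edgeR, adjusted p = 0.000251). PLAT, tissue plasminogen activator, averaged 26.7 ± 1.06 CPM in knockout and 73.9 ± 2.63 CPM in control (log2 fold change -1.47; adjusted p = 7.64e-07). BSG, a surface protein known to induce metalloproteinases in neighbouring cells, was not called at 319 ± 7.36 CPM in knockout and 333 ± 15.5 CPM in control.

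Of 31 transcription factors known for metalloproteinase promoters, 28 were tested, 8 were higher and 11 lower (28.6% and 39.3%, against 14.0% each of all genes), with a median of -0.08. JUN, a subunit of AP-1, had 38.4, 38.5 and 36.0 CPM in the knockout libraries, against 13.6, 14.1 and 13.6 CPM in the control libraries. Its log2 fold change was 1.45 ± 0.06 (SE; edgeR, adjusted p = 8.22e-07). LEF1, a partner of beta-catenin, averaged 12.7 ± 0.874 CPM in knockout and 43.4 ± 2.46 CPM in control (log2 fold change -1.77; adjusted p = 8.42e-07). CTNNB1, beta-catenin itself and the most abundant of the list, averaged 473 ± 12.4 CPM in knockout and 615 ± 28.4 CPM in control (log2 fold change -0.38; adjusted p = 0.00176). Of the 10 AP-1 subunits in the list, looked at together after their values were seen, 9 were tested. Of these, 5 were higher (JUN, FOSL2, ATF3, BATF3 and FOSL1) and 2 were lower, against 14.0% each of all genes. The other 2, JUNB and JUND, were not called, though JUND was called higher with the other library scalings. Nothing is read from these counts, since the subunits were grouped with their values known. FOSL2 averaged 83.7 ± 8.98 CPM in knockout and 28.4 ± 2.37 CPM in control (log2 fold change 1.56; adjusted p = 6.29e-06). FOS averaged 0.768 ± 0.165 CPM in knockout and 2.52 ± 0.142 CPM in control (log2 fold change -1.71; adjusted p = 0.000122). FOSB averaged 3.10 ± 0.226 CPM in knockout and 6.78 ± 0.710 CPM in control (log2 fold change -1.13; adjusted p = 0.000107). FOSL1, the most abundant subunit, had a log2 fold change of 0.19 (adjusted p = 0.0383).

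Of 27 cytokines, growth factors and receptors known to induce genes of the cluster, 24 were tested, 12 were higher and 4 lower, against 14.0% each of all genes, with a median of 0.39. The share of lower genes in this list, 16.7%, was near that background. AREG, a ligand of the EGF receptor, averaged 28.6 ± 3.03 CPM in knockout and 6.00 ± 0.219 CPM in control (log2 fold change 2.25; edgeR, adjusted p = 6.57e-07). IL1RAP, the shared chain of interleukin 1 receptors, averaged 11.3 ± 1.12 CPM in knockout and 44.7 ± 0.319 CPM in control (log2 fold change -1.98; adjusted p = 6.46e-07). TGFA, another ligand of the EGF receptor and the most abundant of the list, averaged 296 ± 5.26 CPM in knockout and 634 ± 21.5 CPM in control (log2 fold change -1.10; adjusted p = 2.12e-06).

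Of 28 substrates of collagenases and stromelysins, 24 were tested, 11 were higher and 7 lower (45.8% and 29.2%, against 14.0% each of all genes), with a median of 0.05. VCAN, the proteoglycan versican, averaged 23.1 ± 4.49 CPM in knockout and 2.88 ± 0.670 CPM in control (log2 fold change 3.01; edgeR, adjusted p = 8.24e-06). ACAN, the cartilage proteoglycan aggrecan, averaged 0.118 ± 0.0217 CPM in knockout and 1.93 ± 0.470 CPM in control (log2 fold change -4.01; adjusted p = 1.34e-05). LAMC1, a laminin chain and the most abundant of the list, was not called at 471 ± 49.7 CPM in knockout and 484 ± 62.7 CPM in control.

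**Figure D4:**
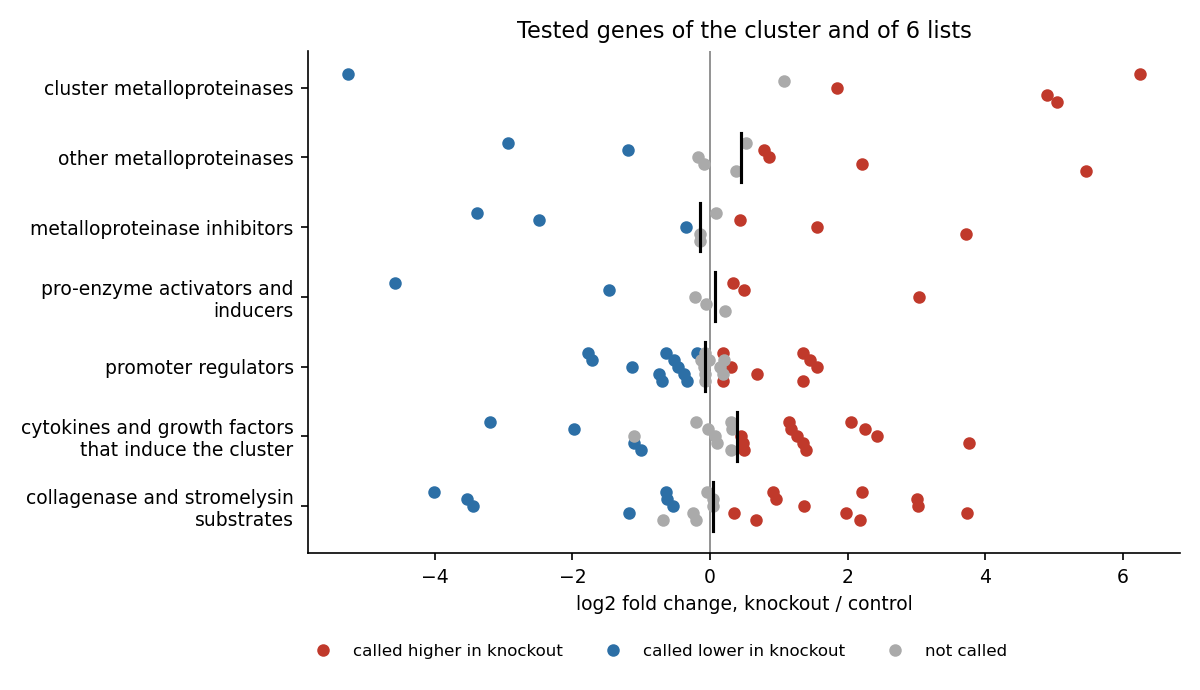
Log2 fold change (knockout over control) of each tested gene of the cluster and of 6 lists, 1 point per gene, coloured by call, with black bars at the median of each list other than the cluster. The list medians lie between -0.14 and 0.45. Single genes of the lists lie between -4.575 and 5.47, and single members of the cluster between -5.26 and 6.25.

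Fibroblasts and keratinocytes can make MMP1, MMP3 and MMP10, and RNA of genes used as their markers was counted in these A375 libraries. Of 12 fibroblast markers, all 12 were tested, 7 were higher and 1 lower (against 14.0% each of all genes), and they summed to 29.7 to 31.6 CPM in knockout and 18.7 to 22.4 CPM in control, led by LUM, a collagen-binding proteoglycan. The keratinocyte list had 7 tested members, 3 higher and 2 lower (against 14.0% each of all genes). It summed to 67.4 to 80.4 CPM in knockout and 66.0 to 80.7 CPM in control, mostly KRT10. The labels name no cells but A375, and whether these marker genes bear on the metalloproteinase values was not tested.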

How the data were processed

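RNA of 6 A375 libraries (3 knockout, 3 control, grouped by title) was extracted with RNeasy Plus and sequenced from a KAPA stranded mRNA kit, per the labels' protocols. HISAT2, HTSeq and hg38 are named in the submitters' processing notes; versions, strand setting and annotation release were not given in the sources used here. The authors deposited raw counts per gene. Gene types, coordinates and exon lengths came from GENCODE 29 (GRCh38, the assembly of hg38) and promoters from RefSeq (GRCh38.p14). Counts were tested in edgeR 4.0.16 (R 4.3.3; limma 3.58.1): filterByExpr (19263 genes), TMM, two-sided quasi-likelihood test without covariates, Benjamini-Hochberg over all genes, threshold 0.05, checked on simulated counts. CPM use TMM-scaled totals; SEs come from the log2 fold change and the F statistic. DESeq2 1.42.0 was an alternative, among 14. Members and lists were chosen with earlier results of these data known. Named were all members, SOX10, tested protein-coding flanking genes, the 3 genes most alike to MMP1 and to MMP8, the most abundant marker of a cell type, and per list the smallest p in each direction and the most abundant tested gene. 1 gene that this rule names is not reported here. A planned comparison of the member proteins was not run. Replicates differed by more than sampling noise; p-values measure the spread between libraries, which may be technical.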

Additional observations from a re-analysis of the deposited data

How the results depend on the processing

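Under 14 alternatives, MMP8, MMP10, MMP1, MMP3 and MMP13 kept their direction and call. MMP12 passed the threshold with limma-voom (1.08) and with the replicate block (1.09), and leaving out 1 library gave 0.91 to 1.42; it had no value with a filter of 1 CPM in 3 libraries. Same-numbered libraries deviated together with r of 0.550, 0.0188 and 0.595, while replicates 1 and 3 of opposite groups gave -0.58 and -0.55. Not every library correlated best with its own number. The main fit did not take the numbers as pairs, and whether equal numbers share a processing step was not tested. The replicate block called 4637 of 19263 genes higher and 5176 lower, against 2694 and 2702 in the main fit. Beside that larger background it called 4 of 8 flanking protein-coding genes, DCUN1D5 (0.09) among them. A test against a 2-fold change called 659 of 19263 genes higher and 573 lower. In the lists it called 2 of 10 other metalloproteinases, 3 of 8 activators and 5 of 28 promoter regulators. It also called 7 of 24 inducers, 8 of 24 substrates and 1 of 8 flanking protein-coding genes. With the filter of 1 CPM 3 activators were called. Leaving out 1 library gave 1986 to 2935 higher and 1794 to 2958 lower genes, the fewest lower without knockout replicate 2. Uncalled genes near 0 changed sign: with total counts LAMC1 0.00046, TMEM123 0.0020 and YAP1 0.012, and over the left-out libraries BIRC2 -0.12 to 0.020, DYNC2H1 -0.079 to 0.21, LAMC1 -0.14 to 0.051 and YAP1 -0.061 to 0.015. The cause was not tested. MMP16 was called without control replicate 3 (-0.22) and with the replicate block (-0.17). MMP7, MMP20 and MMP27 had too few counts to be tested in the main fit.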
